A study of Mus musculus with 35 samples.

Results

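The measurement described here is the difference between brain and spleen in how sorted CD8 T cells responded to 2 h with PMA and ionomycin. It was formed over 4 groups as the stimulated minus unstimulated value in brain, less the stimulated minus unstimulated value in spleen, and used 20 of the 35 libraries of the series. All 20 were labelled as aged male C57BL/6 mice, and the cells were CD3e+ CD8+ cells sorted by a gate for antigen-experienced cells that included high CD44. The groups were unstimulated brain (n = 6, replicates 7 to 12), stimulated brain (n = 4, replicates 19 to 22), unstimulated spleen (n = 5, replicates 30 to 34) and stimulated spleen (n = 5, replicates 36 to 40). Aged female brain libraries, 5 unstimulated and 5 stimulated, served as a second brain arm. Nothing in the labels tells separate from pooled animals, so p-values cover the spread between these libraries, which may be technical. No batch or date is named. Spleen titles are written in another format than male brain titles, and index numbers in the titles repeat between unstimulated and stimulated brain, so handling in separate sets cannot be told apart from tissue or, in brain, from stimulation.

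PMA mimics diacylglycerol and switches on protein kinase C, and ionomycin lets calcium into the cell, so the pair drives T cells without the antigen receptor. The MAP kinase, NF-kB and calcineurin-NFAT routes then induce the immediate early genes, among them the Fos and Jun subunits of AP-1, the zinc finger factors Egr1 to Egr3 and the orphan nuclear receptors of the Nr4a family. Cytokine and chemokine genes follow, together with feedback inhibitors of each route. Memory CD8 T cells that persist in tissues such as the brain are known to release effector cytokines quickly on restimulation.

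The stimulated brain libraries stood apart from the other 3 groups in content. Total counts ran from 10.3 to 24.97 M in unstimulated brain, 1.16 to 6.39 M in stimulated brain, 8.999 to 14.7 M in unstimulated spleen and 6.75 to 11.2 M in stimulated spleen. In brain, 10257 ± 698 genes (SD, n = 6) had a count in unstimulated libraries and 3400.0 ± 932 (n = 4) in stimulated ones, without overlap (exact permutation test, two-sided, p = 0.00952, the smallest this design allows). In spleen the numbers were 15009 ± 164 and 14084 ± 448 (n = 5 each, exact permutation p = 0.00794, also the smallest possible). The mitochondrial share of counts was 9.88% ± 0.456 in unstimulated and 56.3% ± 13.21 in stimulated brain, against 11.8% ± 1.05 and 16.3% ± 2.53 in spleen. At an equal depth of 376098 non-mitochondrial counts per library, 7360.1 ± 776 genes were expected in unstimulated and 3069 ± 662 in stimulated brain. In stimulated brain replicates 20, 21 and 22 the 4 Y-linked genes checked had 0 counts, against 4342 in replicate 19 and 2008 to 10179 in the other 16 libraries. All 3 are labelled male. Of all genes tested, 5883 (48.6%) had 0 counts in all 4 stimulated brain libraries, but the Y-linked genes had counts in replicate 19. How often other genes counted in replicate 19 were at 0 in replicates 20, 21 and 22 was not examined. The label was not tested. Replicates 20, 21 and 22 were left out together in an alternative fit, which keeps replicate 19 as its only stimulated brain library. That library alone shows no spread of its group, so only effect sizes from this fit stand beside some named differences. In bulk RNA, fewer cells of a type and less RNA per cell cannot be told apart.

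**Figure D1:**
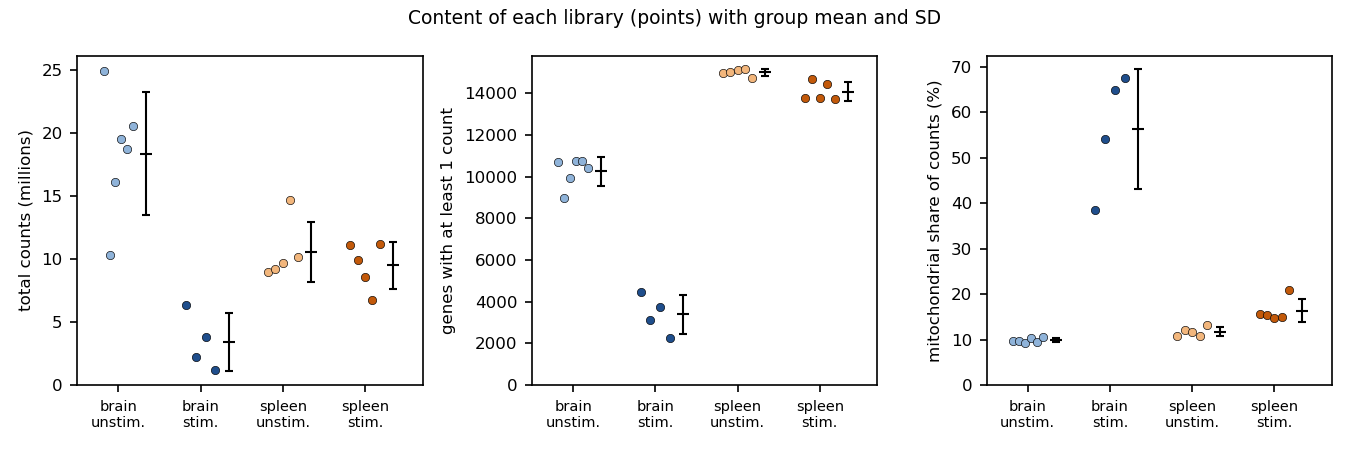
Total counts (M), genes with at least 1 count, and the mitochondrial share of counts in percent for each of the 20 libraries (points), with the group mean and SD. The 4 stimulated brain libraries lie between 2271 and 4464 genes, below all other libraries, and between 38.5% and 67.5% mitochondrial counts, above all other libraries.

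Of 12117 genes tested, 4577 (37.8%) differed in response between brain and spleen (edgeR quasi-likelihood test, Benjamini-Hochberg adjusted p under 0.05, here called passing). The difference was negative, called lower below, for 4323 (35.7%) and positive, called higher, for 254 (2.10%). Its median over all genes was -4.04 on the log2 scale, a value that rests on genes without reads: 5883 genes (48.6%) had 0 counts in all 4 stimulated brain libraries and made up 72.7% of the lower calls. With genes at 0 set to a floor of 3 counts per library, the median was -1.29. Among the 887 genes with counts in all 4 stimulated brain libraries it was -0.45, with 156 lower and 71 higher calls. In the brain arm 529 genes (4.37%) rose and 5513 (45.5%) fell (49.9% in all), and in the spleen arm 64 (0.528%) rose and 2 (0.0165%) fell (0.545% in all), in a fit whose spread is shared by all 4 groups. Fitted on its own libraries, spleen had 1400 rises (12.6%) and 680 falls (6.12%) of 11107 genes, and brain 132 rises (1.75%) and 2743 falls (36.4%) of 7540. Calls within a tissue therefore depend on the fit, and below they come from the 4-group fit unless the tissue alone is named. Without stimulated brain replicates 20, 21 and 22, the median difference was -5.57 over 15650 genes. A list with a share of lower calls near 35.7% is therefore near the background.

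Among the Egr and Nr4a transcription factors 5 of 7 tested members were lower and none higher, against 35.7% and 2.10% of all genes. Their median difference was -7.29, or -6.88 with the floor, against -1.29 for all genes. Nr4a1, an orphan nuclear receptor induced by antigen receptor signals, lies on chr15:101254269-101274795 (plus strand, GRCm38). The 5 unstimulated spleen libraries held 5.01, 5.63, 2.87, 3.60 and 5.505 CPM of it (counts scaled to library size), and the 5 stimulated ones 2359, 2988, 1964, 2024 and 3449. Unstimulated brain ranged from 399.5 to 2325 CPM with a median of 662, and the 4 stimulated brain libraries held 2325, 2974, 1324 and 1565. The stimulated groups of both tissues overlapped, while every unstimulated brain library lay above every unstimulated spleen library. The log2 response was 9.14 (SE 0.67, adjusted p = 1.0e-08) in spleen and 1.14 (SE 0.47, adjusted p = 0.049) in brain, a difference of -7.996 (SE 0.79, adjusted p = 3.9e-07). In the fit of brain alone the brain response had an adjusted p of 0.14.

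The other 2 members of the Nr4a family had the same order of levels. Nr4a3 rose in spleen from 7.40 ± 2.98 to 3121 ± 1674 CPM (SD, n = 5 each) and in brain from 688 ± 135 (n = 6) to 1847 ± 530.2 CPM (n = 4), a difference in log2 response of -7.29 (adjusted p = 3.9e-07). Nr4a2 rose in spleen by 7.69, had a brain response of 0.81 (adjusted p = 0.19) and differed by -6.88 (adjusted p = 3.8e-06). In both, unstimulated brain lay above unstimulated spleen without overlap, and the stimulated groups overlapped.

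Egr1, an early zinc finger factor, held 14.7, 9.04, 13.16, 12.3 and 13.4 CPM in unstimulated spleen and 2926, 3362, 2595, 2801 and 3000.1 in stimulated spleen. In brain it ranged from 174 to 1126 CPM (median 415) without stimulation and held 1196, 400.2, 975 and 339 with it. The brain groups overlapped, and all stimulated brain libraries lay below all stimulated spleen libraries. The difference was -7.29 (SE 0.82, adjusted p = 1.5e-06). Egr2 and Egr3, relatives of Egr1, rose in brain (3.57 and 4.45) as well as in spleen (6.504 and 6.76), and their differences of -2.93 and -2.31 did not pass (adjusted p = 0.069 and 0.14).

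The sequences before the starts of the Nr4a genes are shown because these 3 genes moved together. The 250 bases before each RefSeq start (GRCm38.p6) were searched on both strands for TGACG, the half-site of the cAMP response element, which CREB family factors bind. The window of each of the 3 genes held 4 matches. Of 27025 genes with a window, 5347 (19.8%) held at least 1 match and 44 (0.163%) held 4 or more, where a full palindrome counts as 2 overlapping matches. The motif was chosen after the expression values were seen, and a match describes letters, not binding. The stretches are chr15:101266596-101266845 (plus strand) for Nr4a1, chr2:57124004-57124253 (minus strand) for Nr4a2 and chr4:48045055-48045152 (plus strand) for Nr4a3. Of the last, the 98 bases outside annotated untranslated sequence are printed, with 3 of the 4 matches. Capitals mark the half-site on either strand:
Nr4a1: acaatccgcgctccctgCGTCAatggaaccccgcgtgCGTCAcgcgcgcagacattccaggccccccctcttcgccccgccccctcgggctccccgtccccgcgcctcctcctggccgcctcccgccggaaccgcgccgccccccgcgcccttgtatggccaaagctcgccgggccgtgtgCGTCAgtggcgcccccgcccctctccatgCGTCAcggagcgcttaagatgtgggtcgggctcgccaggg
Nr4a2: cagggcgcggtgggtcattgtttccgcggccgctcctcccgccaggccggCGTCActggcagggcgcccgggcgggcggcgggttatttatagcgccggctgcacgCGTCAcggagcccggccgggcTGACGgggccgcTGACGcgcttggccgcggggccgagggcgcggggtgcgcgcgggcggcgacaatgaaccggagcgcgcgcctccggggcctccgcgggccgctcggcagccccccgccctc
Nr4a3: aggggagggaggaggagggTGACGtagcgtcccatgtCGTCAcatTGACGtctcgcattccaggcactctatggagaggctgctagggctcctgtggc

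Among the subunits and partners of AP-1, 6 of 10 tested members were lower, against 35.7% of all genes, and none higher. Their median difference was -4.13. The median response was 6.07 in spleen, where 7 rose, and 1.67 in brain, where 5 rose; in spleen alone 10 of 10 rose and in brain alone 2 of 9. Fos held 17.5, 14.5, 17.4, 9.71 and 13.46 CPM in unstimulated spleen and 946, 988, 2002, 1562 and 1355 in stimulated spleen. In brain it ranged from 127 to 305 CPM (median 202) without stimulation and held 1055, 300.0, 2065 and 407 with it. Fos thus rose in both tissues, by 6.56 in spleen and 2.19 (adjusted p = 0.0016) in brain, to overlapping stimulated levels. The difference was -4.38 (SE 0.78, adjusted p = 0.00017). Fosl2, a Fos-related subunit, held 466.02 ± 169 CPM in unstimulated and 527 ± 147 in stimulated brain, against 5.93 ± 1.77 and 471 ± 237 in spleen, a difference of -6.13 (adjusted p = 5.5e-06). Fosb and Junb were also lower, by -4.36 and -3.90. Atf3, a stress-induced partner, rose in both tissues and was lower in the difference (-7.74, adjusted p = 0.0022). Its difference was -6.89 without stimulated brain replicates 20, 21 and 22.

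**Figure D2:**
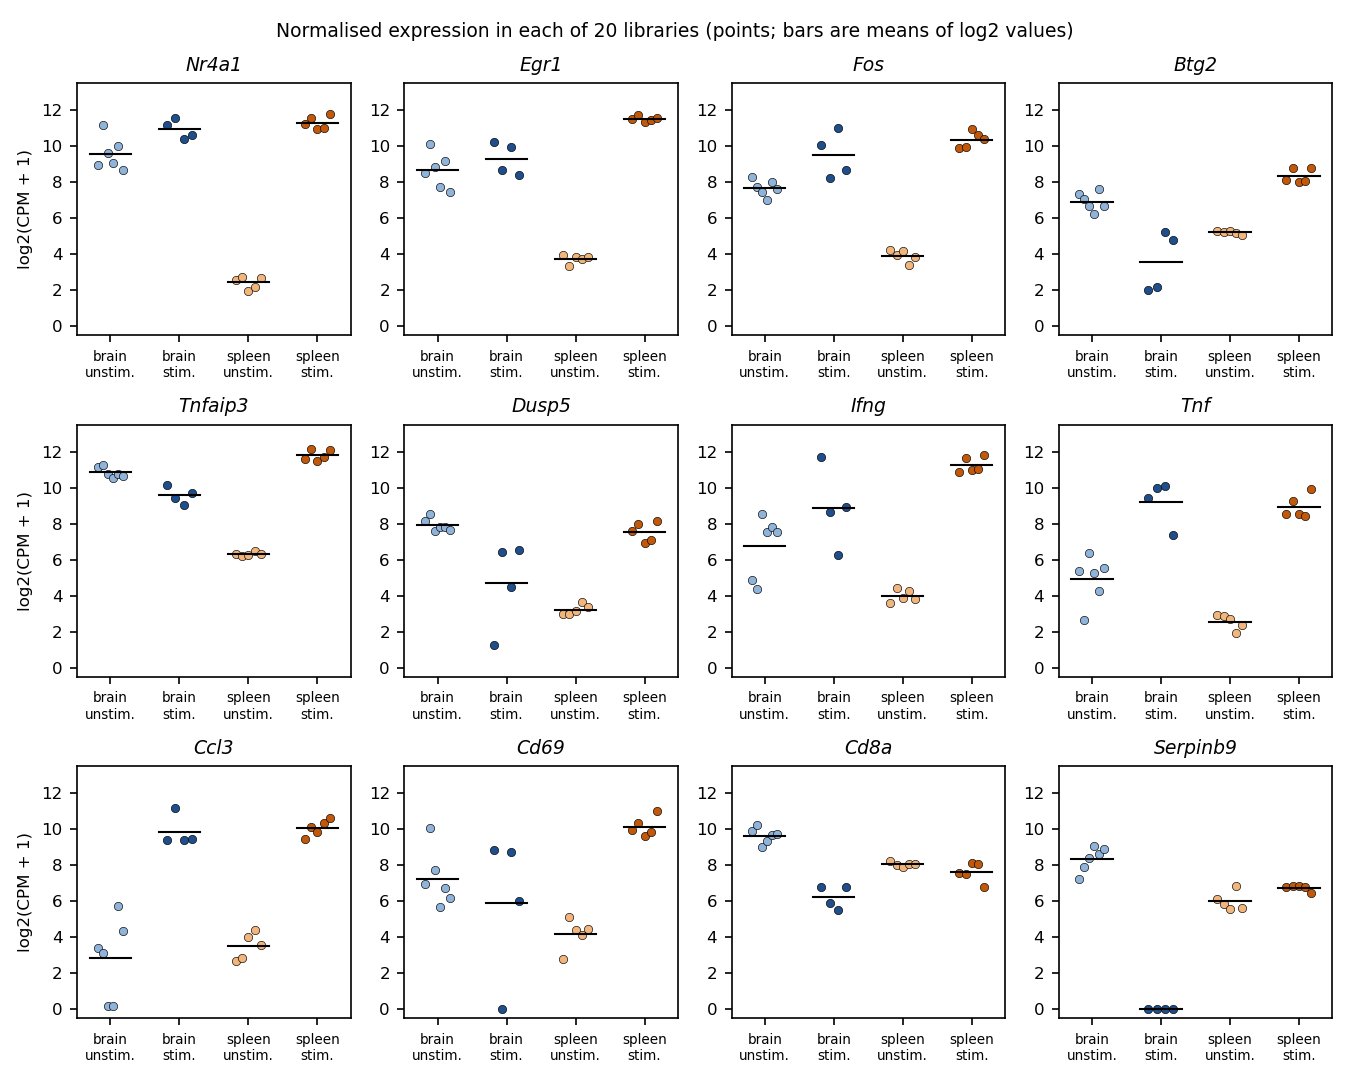
Normalised expression, as log2(CPM + 1), of 12 genes in each of the 20 libraries (points), with bars at the means of the log2 values. For Nr4a1, Fos, Ifng, Tnf and Ccl3 the stimulated groups of brain and spleen overlap, whereas Btg2, Tnfaip3 and Dusp5 fall in brain and rise in spleen, and Serpinb9 is at 0 in all 4 stimulated brain libraries.

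Tnfaip3 had the smallest p in the difference among genes with counts in all 4 stimulated brain libraries. It encodes A20, a ubiquitin-editing enzyme that shuts off NF-kB signalling, and lies on chr10:19000910-19015657 (minus strand, GRCm38). The 5 unstimulated spleen libraries held 78.2, 72.03, 76.5, 86.9 and 80.1 CPM, and the 5 stimulated ones 3057, 4442, 2805, 3354 and 4276. Unstimulated brain ranged from 1503 to 2477 CPM (median 1705), and the 4 stimulated brain libraries held 1142, 698, 532 and 831. The groups of neither tissue overlapped: stimulated spleen lay above unstimulated spleen, and stimulated brain below unstimulated brain. The log2 response was 5.51 (SE 0.42, adjusted p = 1.3e-08) in spleen and -1.22 (SE 0.37, adjusted p = 0.0093) in brain, a difference of -6.73 (SE 0.56, adjusted p = 8.2e-08). Over 31 alternative analyses it ranged from -6.99 to -5.34 and passed in each. The fall in brain, by contrast, had an adjusted p of 0.19 in the fit of brain alone.

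Of 15 NF-kB subunits and feedback inhibitors tested, 5 were lower and none higher, a share near the background, with a median of -2.51. In spleen alone 14 of them rose and in brain alone 1. Nfkbid and Nfkbiz, nuclear members of the inhibitor family, were lower by -5.07 and -4.43, the first with an adjusted p of 0.0015. Without stimulated brain replicates 20, 21 and 22 the Nfkbid difference was -3.86. Nfkbia, the classical cytoplasmic inhibitor, held 745, 389.5, 334 and 54.4 CPM in stimulated brain and 17.2 to 107 (median 44.1) in unstimulated brain. In spleen it held 21.5, 22.9, 22.04, 22.4 and 18.4 CPM before and 479.6, 634, 332, 398 and 781 after stimulation. It rose in both tissues, by 2.85 in brain and 4.61 in spleen, with overlap only between the brain groups within a tissue. The difference of -1.76 (SE 0.90) did not pass (adjusted p = 0.12).

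The sequences before Tnfaip3 and Nfkbia are shown because the first fell and the second rose in brain. The 250 bases before each RefSeq start were searched on both strands for the AP-1 motif TGANTCA and an NF-kB motif, GGG followed after any 2 bases by TTTCC. Of 27025 genes with a window, 7.82% held the first and 1.65% the second. Of the 12 members of the NF-kB list with a window, 3 held the first, and 4 (33.3%: Nfkb2, Nfkbia, Rel and Tnfaip3) held the second. The Tnfaip3 window has an AP-1 match 136 bases and an NF-kB match 12 bases before the start, and the Nfkbia window has an NF-kB match 29 bases before it. The stretches are chr10:19015411-19015547 for Tnfaip3, the 137 bases outside annotated untranslated sequence, and chr12:55492648-55492897 for Nfkbia (both minus strand, GRCm38.p6), with matches in capitals:
Tnfaip3: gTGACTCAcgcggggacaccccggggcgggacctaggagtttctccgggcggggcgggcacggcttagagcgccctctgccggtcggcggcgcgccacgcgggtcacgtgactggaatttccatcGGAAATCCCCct
Nfkbia: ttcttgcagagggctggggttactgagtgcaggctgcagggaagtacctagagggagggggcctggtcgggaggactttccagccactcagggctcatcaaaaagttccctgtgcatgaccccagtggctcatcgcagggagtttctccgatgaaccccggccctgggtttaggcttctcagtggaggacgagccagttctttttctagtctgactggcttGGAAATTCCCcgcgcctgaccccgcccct

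Tnfaip3 was 1 of 6 genes that rose in spleen and fell in brain in the 4-group fit. With each tissue fitted alone, 220 of 7415 genes tested in both did so, none went the other way, and of the 6 only Ctla4 was among the 220. Another 71 rose in both tissues and 235 fell in both. In the fit of brain alone 2743 of 7540 genes (36.4%) fell, so a fall in brain was common. Besides Tnfaip3, the 6 were Btg2 and Tob2, antiproliferative genes of one family, Klf6, a zinc finger transcription factor, Dusp5, a nuclear phosphatase of ERK, and Ctla4, an inhibitory receptor. Btg2 held 38.3, 37.1, 37.4, 35.6 and 33.03 CPM in unstimulated and 277, 433, 258, 271 and 440.1 in stimulated spleen. In brain it ranged from 73.1 to 192 CPM (median 116) without stimulation and held 3.07, 3.56, 37.3 and 26.7 with it. The groups of neither tissue overlapped and they lay in opposite order, with a difference of -6.06 (SE 1.01, adjusted p = 8.8e-05). Klf6 held 49.2 to 58.02 CPM in unstimulated and 278, 328, 284, 287 and 298 in stimulated spleen, and 216 to 575 (median 368) in unstimulated and 172, 115, 61.5 and 57.8 in stimulated brain. Its order was the same, and the difference was -4.32 (SE 0.74, adjusted p = 0.00013).

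Dusp5 held 6.90, 6.82, 7.84, 11.7 and 9.31 CPM in unstimulated and 193, 249, 119, 136 and 278 in stimulated spleen, 195 to 376 (median 222) in unstimulated brain and 1.43, 83.9, 21.7 and 91.1 in stimulated brain. Stimulated spleen thus overlapped the range of unstimulated brain, and the difference was -6.85 (SE 1.12, adjusted p = 7.9e-05), and -11.77 without stimulated brain replicates 20, 21 and 22. Tob2, named after its values were seen, went from 19.6 ± 1.40 to 238 ± 112 CPM in spleen and from 156 ± 52.2 to 42.04 ± 27.4 CPM in brain, a difference of -5.49 (adjusted p = 6.5e-05). In brain alone the falls of Btg2, Klf6 and Dusp5 had adjusted p-values of 0.12, 0.19 and 0.20, although their brain groups did not overlap. Ctla4 had 0 counts in all 4 stimulated brain libraries, at least 26.7-fold below unstimulated brain, and rose in spleen from 7.24 ± 1.75 to 106 ± 22.03 CPM (adjusted p = 0.043).

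Of 10 other immediate early genes, 7 were lower, against 35.7% of all genes, and none higher (median -4.23). In brain 3 of them rose and 4 fell, while in spleen 7 rose; in brain alone 0 rose and 1 fell, and in spleen alone all 10 rose. Btg1, a relative of Btg2, fell in brain from 676 ± 230.3 to 44.2 ± 54.7 CPM, and its difference was -5.498 (adjusted p = 0.00032). Csrnp1, a nuclear factor, and Ppp1r15a, which restores translation after stress, were lower by -6.03 and -3.90, the second by -2.41 without stimulated brain replicates 20, 21 and 22. Myc, a growth regulator, rose in both tissues and did not pass in the difference (-2.44, adjusted p = 0.079).

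Feedback genes of other routes were lower in part, where 35.7% of all genes tested were lower. Of 9 MAP kinase phosphatases and Sprouty genes 4 were lower, including Dusp1 and Dusp2 (-5.27 and -5.13). Of 7 regulators of mRNA decay 4 were lower. They include Zfp36 and Zfp36l1 (-5.24 and -5.12), which bind AU-rich elements of cytokine transcripts, and Zc3h12a, an RNase (-7.13, adjusted p = 0.0056). The Zc3h12a difference was -5.71 without stimulated brain replicates 20, 21 and 22. Of 7 cytokine feedback genes and Pim kinases 3 were lower. Pim1, a survival kinase, and Socs3, which blocks cytokine receptors, lay near the threshold (-2.44 and -2.88, adjusted p = 0.035 and 0.040). They passed in 18 and 11 of 31 alternative analyses. Without stimulated brain replicates 20, 21 and 22 their differences were -1.76 and -1.45.

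The 64 genes that rose in spleen were chosen in a fit whose spread includes the brain libraries, so their detection in brain was partly fixed by that choice, and their values are a description. In brain 23 rose, 6 fell and 35 did not pass (brain alone: 12 rose and 1 fell of 64 tested), and the median log2 response was 0.82, against 4.59 in spleen. Their median level was 19.5 CPM in unstimulated spleen, 213 in unstimulated brain, 552 in stimulated spleen and 356 in stimulated brain. In the difference 50 of the 64 were lower, 3 higher (mitochondrial) and 11 did not pass. The spleen rise that chose these genes enters the difference with a minus sign. Mostly lower calls, and a brain median below the spleen one, were therefore partly fixed by the choice. Of the 64, 58 (90.6%) had counts in all 4 stimulated brain libraries. The fit of spleen alone, which no brain library enters, gave 1400 raised genes, and 413 of these (29.5%) had such counts, against 4.47% of the other 9707 genes. Among genes of at least 100 CPM in stimulated spleen the shares were 48.2% of 606 and 31.6% of 605. Unstimulated brain lay above unstimulated spleen for 80.9% of the 1400 and 60.0% of the others, but a low level in unstimulated spleen helped to choose the former. Of the 1249 that were also tested in brain alone, 71 rose and 220 fell, with a median response of -0.87. Of the 6166 other genes tested in both, 32 rose and 2516 fell in brain alone, with a median of -3.32. Among genes of at least 100 CPM in stimulated spleen, 33 rose and 59 fell in brain alone of 604 raised genes. Of 602 other genes at that level 5 rose and 126 fell, and the medians were -0.78 and -1.63. The raised genes thus fell less often in brain than the others, and the medians lay closer together at that level.

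**Figure D3:**
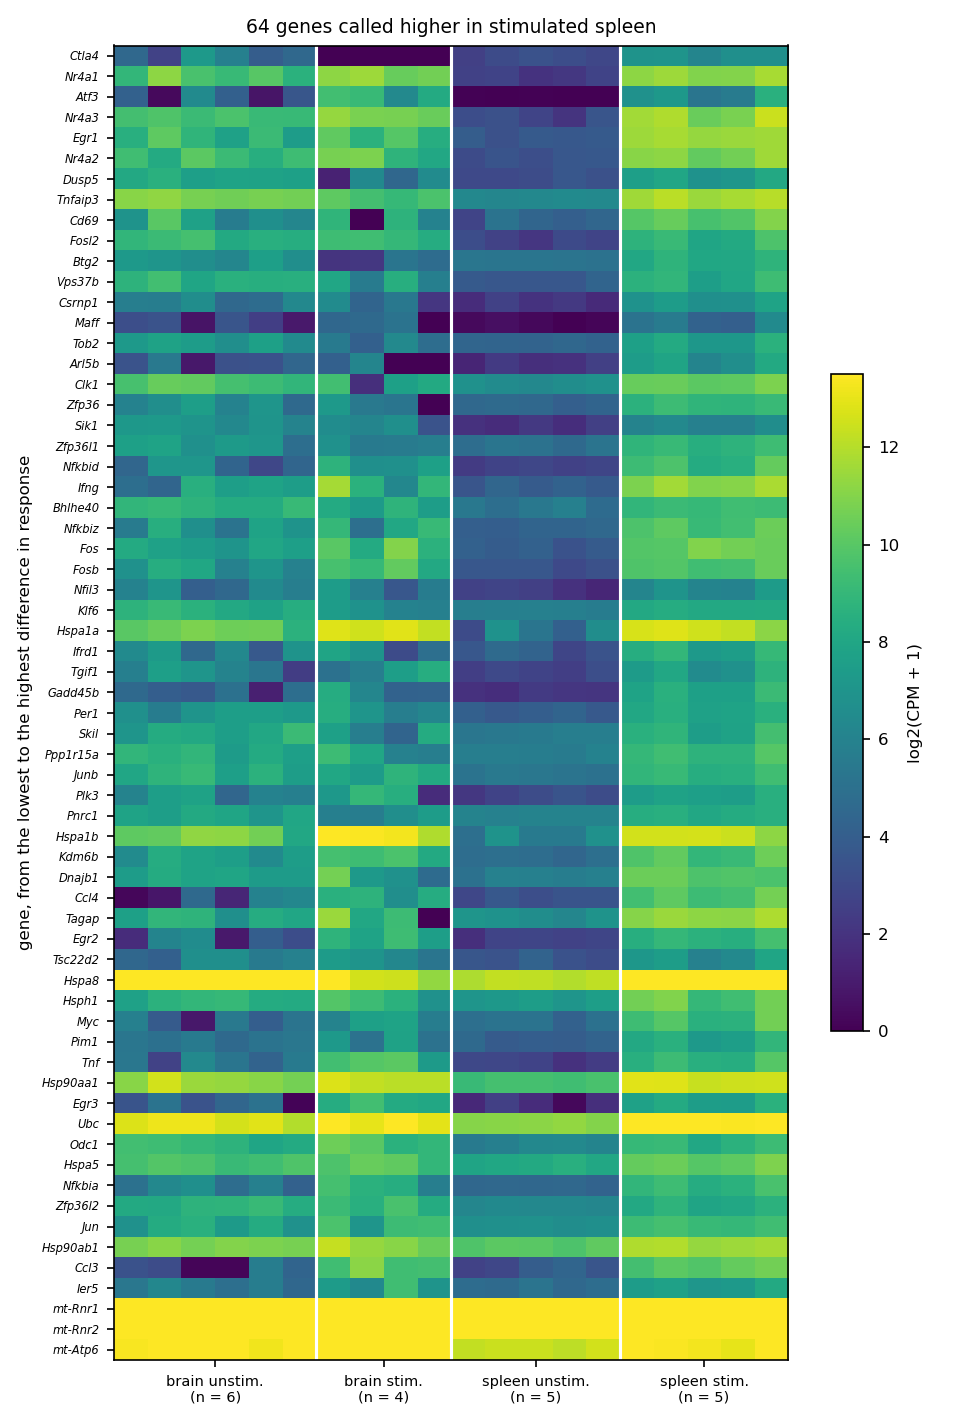
Normalised expression, as log2(CPM + 1) on the colour scale, of the 64 genes that rose in spleen (rows, from the lowest to the highest difference in response) in the 20 libraries (columns by group). Most rows are darkest in unstimulated spleen, and Ctla4, in the top row, is at 0 in all 4 stimulated brain libraries.

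Cytokine genes differed widely between stimulated brain libraries. Ifng, the gene of interferon gamma, held 10.9, 20.9, 13.4, 18.3 and 13.1 CPM in unstimulated and 1842, 3140.2, 1992, 2127 and 3594 in stimulated spleen. Unstimulated brain ranged from 20.03 to 364 CPM (median 185), and stimulated brain held 3300.4, 397, 75.1 and 492. Of the stimulated brain libraries only replicate 19 reached the stimulated spleen range, and the brain groups overlapped. Ifng rose by 7.37 in spleen and 2.66 (adjusted p = 0.0080) in brain, a difference of -4.71 (SE 1.17, adjusted p = 0.0034). The brain response had an adjusted p of 0.057 in brain alone. The difference was -2.91 without stimulated brain replicates 20, 21 and 22.

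Tnf, an inflammatory cytokine, held 679, 991, 1089 and 165 CPM in stimulated brain and 366, 615, 372, 341 and 968 in stimulated spleen, which overlapped. Before stimulation it ranged from 5.26 to 81.98 CPM in brain (median 38.5) and held 6.54, 6.45, 5.599, 2.81 and 4.21 in spleen, below every stimulated library. It rose by 4.26 in brain and 6.70 in spleen, and the difference of -2.43 (SE 0.94, adjusted p = 0.045) passed in 9 of 31 alternative analyses. Without stimulated brain replicates 20, 21 and 22 the Tnf difference was -2.37. Ccl3, a chemokine that attracts lymphocytes and monocytes, held 663, 2283, 664 and 694 CPM in stimulated brain and 696, 1096, 901, 1280.4 and 1561 in stimulated spleen. Unstimulated libraries held 0.142 to 52.5 CPM in brain (median 8.65) and 5.30, 6.30, 14.9, 20.3 and 10.9 in spleen. Both tissues rose to overlapping levels (6.18 and 6.58), and the difference was -0.40 (SE 1.33, adjusted p = 0.86), of positive sign under 7 alternatives. Ccl4, a close relative, rose in both with a difference of -3.16 (adjusted p = 0.087), and Ccl5 passed in neither tissue. None of 6 chemokines passed in the difference (median -1.42). The Ccl5 difference was -1.62 in the main fit and -2.32 without stimulated brain replicates 20, 21 and 22. It passed with voom (-2.81, adjusted p = 0.022). With the female brain libraries 2 chemokines, among them Ccl4 (adjusted p = 0.022), were lower.

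Of 9 cytokine genes tested, 3 were lower (Ifng, Tnf and Il10), a share near the background, and Il21 was higher. The list median was -2.09, and -2.37 without stimulated brain replicates 20, 21 and 22. Il21 encodes a cytokine that sustains CD8 T cells. It had no counts in unstimulated brain and held 608, 0, 0.504 and 81.1 CPM in stimulated brain, 0, 0.370, 0.280, 1.58 and 0 in unstimulated and 43.4, 74.4, 84.5, 130.5 and 174 in stimulated spleen. With the floor in unstimulated brain, the log2 difference was at least 1.94 (adjusted p = 0.037), and without replicate 19 the adjusted p was 0.13. Il10, an anti-inflammatory cytokine, held 0.223 ± 0.388 CPM in unstimulated and 56.2 ± 16.2 in stimulated spleen. In brain it had 4.62 CPM in unstimulated replicate 12 and no counts in the other 9 libraries. The difference passed (adjusted p = 0.0061), but not without that library.

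Most genes of cytotoxic granules and death ligands fell in brain in the 4-group fit. Of 13 tested, 10 fell there, against 45.5% of all genes, and 7 of 12 (58.3%) in brain alone, against 36.4%. None passed in spleen (4 rose in spleen alone). In the difference 9 were lower, against 35.7% of all genes. The median was -3.47 with the floor, against -1.29 for all genes. Of the 13, 6 had 0 counts in all 4 stimulated brain libraries, a share near the 48.6% of all genes. Serpinb9, which protects killer cells from their own granzyme B, ranged from 148 to 531 CPM (median 363) in unstimulated brain and had 0 counts in stimulated brain, at least 202-fold lower. In spleen it held 69.6, 57.4, 45.9, 112 and 47.8 CPM before and 108, 115, 116, 111 and 86.6 after stimulation, which overlapped (adjusted p = 0.047 in spleen alone). The difference passed (adjusted p = 3.6e-07), and did not with the female brain libraries (adjusted p = 0.31). Gzmk, a granzyme, was at least 72.1-fold lower in stimulated brain and held 100.4 ± 38.3 and 94.1 ± 59.4 CPM in spleen. Fasl, a death ligand, fell in brain from 85.1 ± 31.8 to 0.657 ± 0.951 CPM. Gzmb, the main killing granzyme, and Srgn, the granule proteoglycan, did not pass (adjusted p = 0.51 and 0.15). Gzmb held 0, 0, 289 and 147 CPM in stimulated brain, and was lower with the female brain libraries (-4.60, adjusted p = 0.038). Without stimulated brain replicates 20, 21 and 22 its fitted difference was -14.81, no measured size since it was at 0 in replicate 19.

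Cd69, an early activation receptor that also retains T cells in tissue, held 452, 0, 422 and 62.2 CPM in stimulated brain against 984, 1316, 769, 909 and 2015 in stimulated spleen. Unstimulated brain ranged from 50.5 to 1061 CPM (median 113), and unstimulated spleen held 5.88, 34.3, 20.02, 16.1 and 20.9. The brain groups overlapped and the spleen groups did not, with a difference of -6.15 (SE 1.61, adjusted p = 0.0050). Of 12 costimulatory and activation receptors 4 were lower, a share near the background. They include Cd28 (-4.43) and Cd27, which was at least 23.9-fold lower in stimulated brain. Of 10 inhibitory receptors 7 were lower, against 35.7% of all genes (median -3.06 with the floor). In stimulated brain 6 of the 10 had 0 counts, against 48.6% of all genes. With the female brain libraries 3 were lower. Pdcd1, the gene of PD-1, was lower by -4.68 (adjusted p = 0.028). Its difference was -2.56 without stimulated brain replicates 20, 21 and 22.

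Cd200r1, the inhibitory receptor named in the series title, had low counts in both tissues. Unstimulated brain ranged from 0 to 88.1 CPM with a median of 0.848, and all 4 stimulated brain libraries had 0 counts. Spleen held 7.19, 2.96, 4.13, 4.30 and 6.52 CPM before and 2.13, 4.23, 4.96, 3.07 and 0.110 after stimulation. The groups of either tissue overlapped. The difference had an adjusted p of 0.025 with edgeR, 0.69 with limma voom and 0.064 with the female brain libraries.

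Genes that define the sorted cells fell in stimulated brain, where falls were common among all genes tested. Of 16 CD8 T cell identity genes 11 fell in brain, against 45.5% of all genes. In brain alone 6 fell (37.5%, against 36.4% of all genes), a share near the background. In female brain 1 of 16 fell, against 4.17% of all genes. The median brain response of the list was -3.04, against -3.97 for all genes. With the floor it was -3.05, against -1.26. None passed in spleen (3 rose and 2 fell in spleen alone). In the difference 9 were lower, against 35.7% of all genes (median -2.94). Their summed level was 6261 to 11361 CPM in unstimulated and 793 to 1835 in stimulated brain, 4215 to 5027 in unstimulated and 4366 to 5677 in stimulated spleen, so stimulated brain lay below all other libraries. Cd8a, the CD8 alpha chain, ranged from 505 to 1198 CPM (median 824) in unstimulated brain and held 109, 57.97, 44.9 and 109 in stimulated brain. In spleen it held 296, 253, 238, 271 and 262 CPM before and 185, 181, 277, 265 and 111 after stimulation. The brain groups did not overlap and the spleen groups did, with a difference of -2.99 (SE 0.69, adjusted p = 0.0019). The CD3 chains Cd3d, Cd3e and Cd3g were lower too (-6.15, -4.40 and -4.09), as was Ptprc, the gene of CD45 (-2.88). The differences of Cd3g and Ptprc were -2.70 and -1.73 without stimulated brain replicates 20, 21 and 22. Trbc2, a constant segment of the T cell receptor beta chain, had 0 counts in stimulated brain and was at least 77.5-fold lower there. The mitochondrial share and the number of genes detected moved with these falls, and their part in them was not tested.

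Markers of other cells were read beside these genes. The 12 microglia and macrophage markers summed to 179.8 to 969 CPM in unstimulated and 0 to 86.6 in stimulated brain, where C1qa, C1qb, C1qc, Csf1r, P2ry12, Tmem119 and Trem2 were at 0. The 5 B cell, 4 NK cell, 4 neuron and 5 neutrophil and monocyte markers were all at 0 in stimulated brain. So were 48.6% of all genes tested. In unstimulated brain the sums of these markers had medians of 2.66, 0.341, 2.25 and 5.24 CPM, in that order. The neutrophil and monocyte sum reached 473 CPM there. Counts of 0 in stimulated brain therefore do not show a loss of these cells. The B cell markers summed to 143 to 469 CPM in unstimulated and 176 to 384 in stimulated spleen. The 4 choroid plexus markers summed to 3.47 to 1483 CPM in unstimulated and 0 to 4495 in stimulated brain, with Folr1 and Kl at 0 in the latter. The part of other cells in the differences was not tested.

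Of 16 kinases, GTPases and calcium sensors that relay PMA and ionomycin, none passed in spleen (4 rose in spleen alone). In brain 7 fell, against 45.5% of all genes, and in brain alone 3 (18.8%), against 36.4%. In the difference 5 were lower, a share near the background. Map2k1, the kinase upstream of ERK, had 0 counts in stimulated brain (at least 23.7-fold lower) and held 24.4 ± 4.33 and 27.8 ± 12.8 CPM in spleen. Nras, a small GTPase, was at least 6.03-fold lower in stimulated brain, and Prkcd, a target of PMA, fell to 0.177 ± 0.238 CPM. The Prkcd difference was -7.35 (adjusted p = 0.0013), and -7.16 without stimulated brain replicates 20, 21 and 22. Of 10 genes of the NFAT pathway and its targets 5 were lower, against 35.7% of all genes. Ppp3cb, a catalytic chain of calcineurin, was at least 54.8-fold lower in stimulated brain, and Ppp3r1, its regulatory chain, and Nfatc3 fell to 0.682 ± 0.914 and 1.82 ± 3.496 CPM. With the female brain libraries in place of the male ones, 0 relay genes and 0 NFAT genes were lower.

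Of 14 tissue residency genes 6 were lower (median -2.36), against 35.7% of all genes tested. Bhlhe40, a repressor needed by resident T cells, rose in spleen from 38.8 ± 13.25 to 572 ± 74.6 CPM and held 435 ± 105 and 269.8 ± 125 in brain, a difference of -4.57 (adjusted p = 4.9e-05). Rgs1, which dampens chemokine receptor signals, and Itga1, the integrin chain CD49a, fell in brain and were lower (-5.31 and -7.40). Among the egress and circulation genes, S1pr1, the receptor for sphingosine-1-phosphate, and Ccr7, a lymph node homing receptor, were lower, both with 0 counts in stimulated brain (at least 11.6- and 1.69-fold lower). Ccr7 did not pass with voom (adjusted p = 0.52), and S1pr1 did not with the female brain libraries (0.59) or voom (0.14). Of 10 naive and memory genes 2 were lower. Cxcr4, a chemokine receptor, had counts in 1 stimulated brain library (0.204 CPM) against 125 to 412 CPM in unstimulated brain, and held 18.7 ± 4.30 and 78.6 ± 21.1 in spleen (adjusted p = 2.0e-07).

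Of 12 heat shock genes 8 rose in spleen, against 0.528% of all genes. In brain 2 rose and 1 fell, against 4.37% and 45.5% of all genes. In the difference 8 were lower, against 35.7% of all genes (median -2.60). With the female brain libraries 6 were lower. In spleen alone all 12 rose. Hspa1a and Hspa1b, near-identical copies of the inducible HSP70 whose reads cannot be split with certainty, rose in both tissues. Hspa1a went from 1277 ± 487 to 6435 ± 1279 CPM in brain and from 54.96 ± 49.04 to 5398 ± 1922 in spleen, a difference of -4.28 (adjusted p = 0.00051). Without stimulated brain replicates 20, 21 and 22 it was -3.92, and that of Hspa1b went from -3.58 to -2.98. Hspa8, the constitutive chaperone, held 21261, 6188, 5615 and 2552 CPM in stimulated brain and 18206, 18946, 14481, 14717 and 16898 in stimulated spleen. Unstimulated libraries held 13200.2 to 16624 CPM in brain (median 14405) and 3707, 4869, 4745, 3898 and 4765 in spleen. Of the stimulated brain libraries replicate 19 lay above and the other 3 below all unstimulated brain libraries, with a difference of -2.63 (SE 0.54, adjusted p = 0.00075), which was -1.21 without stimulated brain replicates 20, 21 and 22.

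Of 16 glycolysis genes 9 fell in brain, against 45.5% of all genes. In brain alone 4 fell (25%, against 36.4% of all genes). None passed in spleen (2 rose and 1 fell in spleen alone), and 5 were lower, a share near the background. Among the lower genes were Pfkfb3, which raises glycolytic flux (-6.77), and Slc2a1, the glucose transporter GLUT1 (-6.98), while Gapdh did not pass (-1.2003, adjusted p = 0.43). Of 13 genes of ribosome biogenesis and initiation 5 were lower, a share near the background. In spleen 1 rose (8 in spleen alone), and the nucleolar Ncl and Npm1 did not pass in the difference (adjusted p = 0.14 and 0.077). Of 11 interferon response genes 9 fell in brain, against 45.5% of all genes. In brain alone 5 of 10 fell (50%, against 36.4% of all genes). None passed in spleen (5 fell and 1 rose in spleen alone). In the difference 6 were lower, against 35.7% of all genes (median -3.58 with the floor). Rtp4, an interferon-induced gene, was at least 50.5-fold lower in stimulated brain.

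**Figure D4:**
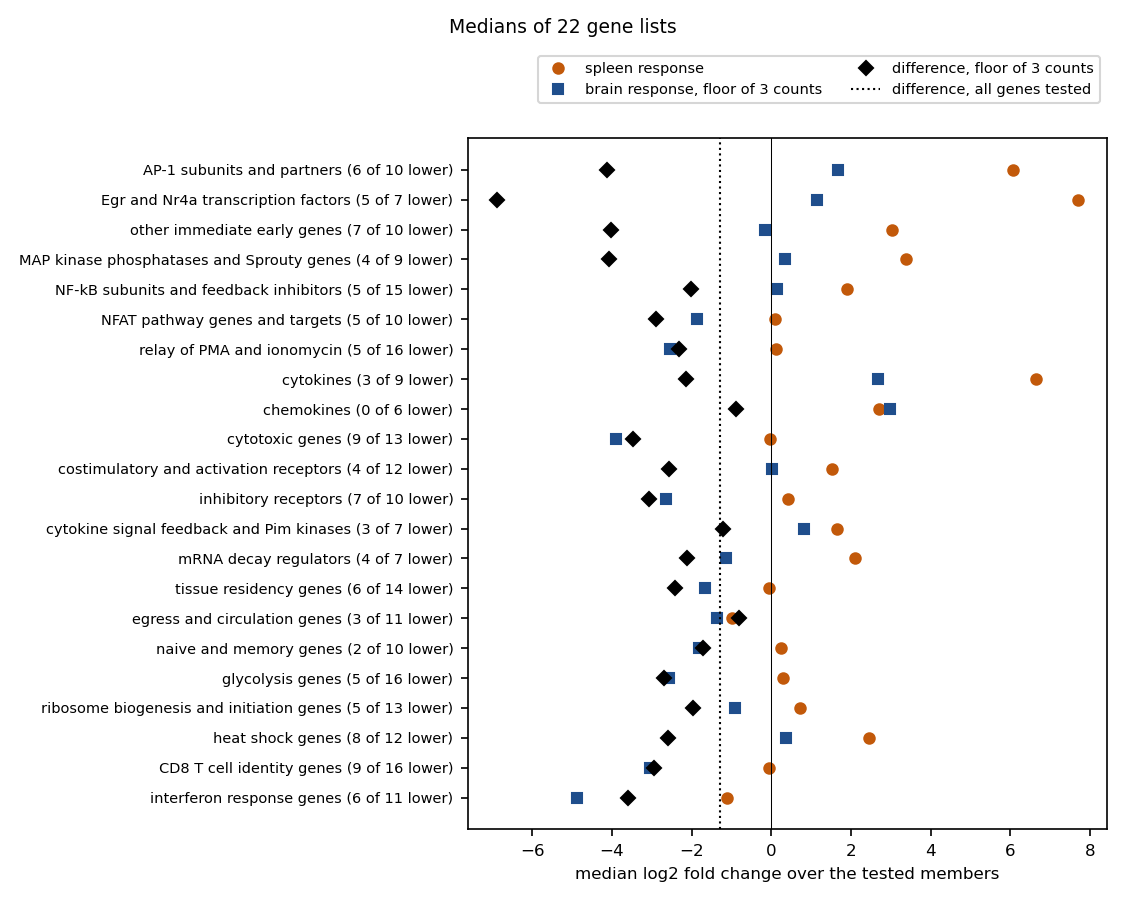
Median log2 response in spleen (circles), in brain (squares) and their difference (diamonds) over the tested members of 22 gene lists, with genes at 0 in a brain group set to 3 counts per library. The dotted line is the median difference of all genes, -1.29, and the Egr and Nr4a factors lie farthest below it at -6.88.

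Outside the lists, the lower genes with the smallest p were abundant genes without counts in stimulated brain. Gdi2, which recycles Rab GTPases, ranged from 318 to 667 CPM (median 603) in unstimulated brain and had 0 counts in stimulated brain, at least 307-fold lower. Spleen held 250.4, 328, 338, 389 and 281 CPM before and 441, 297, 414, 429 and 232 after stimulation, which overlapped (difference adjusted p = 8.2e-08). Taf15, an RNA-binding protein, Rps16, a ribosomal protein, and Inpp4b, a lipid phosphatase, were at least 275-, 281- and 249-fold lower in stimulated brain, and none passed in spleen, although Taf15 and Rps16 rose in spleen alone (adjusted p = 0.012 and 0.029). With the female brain libraries Gdi2, Taf15 and Inpp4b did not pass (adjusted p = 0.16, 0.38 and 0.51).

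Of 16 mitochondrially encoded genes tested, 15 were higher in the difference, with a median of 2.12. In brain 16 rose and in spleen 3 (16 of 16 in spleen alone). mt-Nd4, a subunit of complex I, held 21471, 28411, 45274 and 33008 CPM in stimulated brain and 2313 to 3861 (median 2749) in unstimulated brain. Spleen held 1980.5, 2170.1, 2118, 1784 and 2537 CPM before and 3742, 3445, 3227, 2949 and 6019 after stimulation. The groups of neither tissue overlapped, and the difference was 2.61 (SE 0.40, adjusted p = 3.8e-05). mt-Co1, a subunit of complex IV, and mt-Rnr2, the large ribosomal RNA, were higher by 1.61 and 1.64, and mt-Nd3 did not pass (adjusted p = 0.22). The mt-Nd3 difference was 3.58 without stimulated brain replicates 20, 21 and 22, and it passed with the female brain libraries (2.76, adjusted p = 0.038).

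The other higher genes had few reads behind them. Of the 254 higher genes, 129 had counts in 1 stimulated brain library, 88 had none in unstimulated brain, and 96 were predicted genes, small RNAs or receptor segments. Of the 71 with counts in all 4 stimulated brain libraries, 15 were mitochondrial, 30 predicted or small RNA genes, and 12 had the same values as another entry. Slc17a9, a vesicular nucleotide transporter, held 2.45, 6.61, 10.1 and 35.5 CPM in stimulated brain and at most 0.152 in unstimulated brain. Spleen held 1.38, 2.52, 3.71, 2.503 and 1.63 CPM before and 3.51, 4.23, 2.997, 4.68 and 6.37 after stimulation. The brain groups did not overlap, and the difference was 7.06 (adjusted p = 0.00083). It was 4.79 without stimulated brain replicates 20, 21 and 22.

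For the 795 genes with a count in each of the 20 libraries, the fit of all genes called 38 higher and 155 lower, with a median difference of -0.69. Fitted on their own, with the library scaling recomputed from them, 138 were higher and 104 lower, and the median was 0.22. The median gene moved up by 0.89 between the fits (0.66 to 1.24 from the 5th to the 95th percentile), so the balance of calls depends on the scaling, and the values below are read against 0.22. The 6 Egr and Nr4a genes left had a median of -6.17 with 4 lower, the 6 AP-1 genes -3.19 with 4 lower, the 9 other immediate early genes -3.42 with 6 lower and the 9 heat shock genes -1.73 with 6 lower. The 5 CD8 identity genes left had a median of 0.44, with 2 lower. Under this filter Tnfaip3 differed by -5.75, Nr4a1 by -6.97, Btg2 by -5.05 and Cd8a by -2.01, all past the threshold (adjusted p = 6.8e-10, 5.2e-08, 8.5e-05 and 0.0098).

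**Figure D5:**
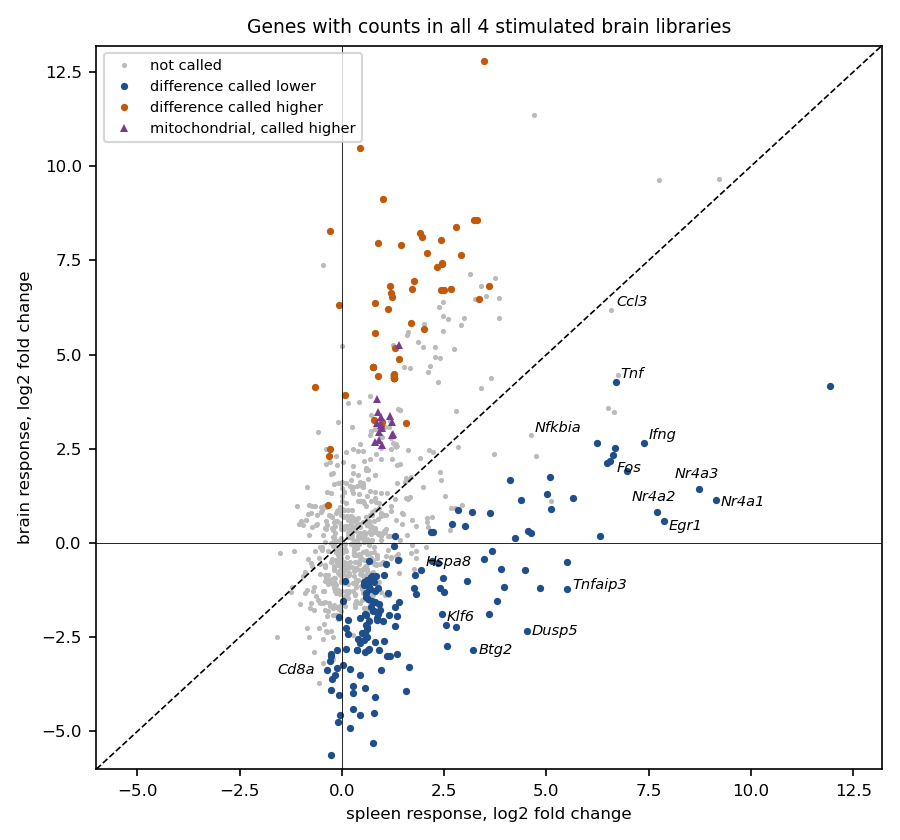
Log2 response in spleen (x) against log2 response in brain (y) for the 887 genes with counts in all 4 stimulated brain libraries, with the dashed line marking equal responses. Blue points (156) were lower in the difference, and orange points with purple triangles (71 together) were higher; Nr4a1, Egr1 and Tnfaip3 lie far to the right and near 0 in brain, and Ccl3 lies close to the line.

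The aged female brain libraries gave a brain arm that shares no library with the male one. In females 121 of 6305 genes (1.92%) rose and 263 (4.17%) fell (6.09% in all), which became 36 and 15 without unstimulated replicate 13, 35 and 18 without 14, 35 and 14 without 16, and 44 and 24 without 17. The median response was -0.41, and the mitochondrial share went from 10.5% ± 1.65 to 58.6% ± 10.8 (SD, n = 5 each). Over the 869 genes tested in both sexes with counts in all 4 stimulated male libraries, the responses had a Pearson r of 0.787 and a Spearman rho of 0.685. Over all 6283 genes tested in both, r was 0.330; genes are not independent replicates, and these values describe the libraries. Nr4a1 rose in females by 2.002 (adjusted p = 0.022), from 571 ± 278 to 2286 ± 467 CPM. Tnfaip3 held 828 ± 163 and 917 ± 406 CPM, a response of 0.15 (adjusted p = 0.92), and whether the sexes differ was not tested. All 16 mitochondrial genes rose in females.

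With female brain in place of male brain, against the same spleen libraries, 1629 of 11654 genes were lower and 227 higher, with a median of -1.22. The Egr and Nr4a list then had a median of -5.51 (4 lower) and AP-1 -2.77 (5 lower, 1 higher). Nr4a1 (-7.12), Egr1 (-6.40), Tnfaip3 (-5.34), Btg2 (-5.43), Klf6 (-3.10) and Ifng (-4.23) passed in this fit. Cd8a did not (-0.58, adjusted p = 0.74), and the CD8 identity list had 2 lower genes and a median of -1.16. Of the genes named as lower or higher, Cd200r1, Cd27, Cd3d, Cd3e, Cd3g, Cd8a, Csrnp1, Cxcr4, Dusp2, Gdi2, Gzmk, Il21, Inpp4b, Itga1, Map2k1, Nfatc3, Nras, Pdcd1, Pim1, Ppp3cb, Ppp3r1, Prkcd, Rgs1, S1pr1, Serpinb9, Slc17a9, Slc2a1, Socs3, Taf15, Tnf and Zc3h12a did not pass with the female brain libraries (adjusted p = 0.053 to 0.96). With limma voom and the male brain libraries, Ccr7, Cd200r1, Il10, Il21, Itga1, Nras, S1pr1 and Tnf did not pass (adjusted p = 0.095 to 0.91). The fits with male and with female brain share the spleen libraries, so they are not independent.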

How the data were processed

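RNA-seq libraries of sorted CD8 T cells were analysed from the deposited table of raw counts per gene (38924 entries), which equals the authors' RSEM expected counts after rounding. The authors' sample files hold expected counts, TPM and FPKM per gene, per the file headers; TPM and FPKM, as deposited by the authors, were not used. Bowtie2 2.2.0, RSEM 1.2.12 and mm10 are named in the submitters' processing notes; which annotation, strand setting and trimming were used is not given in the sources used here, so reads of overlapping, antisense or near-identical genes may be shared.

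Groups were taken from the sample titles. The 4 groups were fitted together with edgeR 4.0.16 (filterByExpr with a minimum count of 10, TMM, robust quasi-likelihood) in R 4.3.3, and p-values were adjusted by Benjamini-Hochberg over all genes at a threshold of 0.05. Every adjusted p in the report comes from this test or from a named alternative; SE is the log2 fold change divided by the root of F. CPM used TMM-scaled totals. The script was tested on simulated counts. Library content was compared by exact permutation tests, two-sided, adjusted over 8 values. Promoters came from RefSeq (GRCm38.p6) and gene positions from GENCODE M21, matched for 98.8% of tested genes.

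The members and lists were chosen with earlier results of these data known. Named genes were Cd200r1, up to 10 per direction with the smallest p in the difference, per list the 2 most abundant and up to 3 called members, and the largest spleen responses; Ccl4, Cd3e, Cd8b1, Egr3, Myc, Nfkbia and Tob2 were added after their values were seen. Alternatives were DESeq2 1.42.0, limma 3.58.1 voom, other filters and scalings, left-out libraries and the female libraries; thinning, the fits of 1 tissue and leaving out stimulated brain replicates 20, 21 and 22 together were chosen after seeing the data. The young libraries were not used here, apart from the fit of all 35. Replicates within a group differed beyond sampling noise. The number and depth of the libraries set the precision, and the floor of 3 counts covers counting error only.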

Additional observations from a re-analysis of the deposited data

Results flagged for a closer look

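Of 96 values per group checked for a library far from the others of its group, 13 (13.54%) were set apart. The cutoff has a nominal rate of about 1 in 20, which was not measured for these libraries, so no excess over it is claimed. Unstimulated brain replicate 8 held 2325 CPM of Nr4a1 (others 400 to 1022), 1061 CPM of Cd69 (others 50.5 to 213) and 3861 CPM of mt-Nd4 (others 2313 to 2843). Unstimulated brain replicate 11 held 52.5 CPM of Ccl3 (others 0.142 to 19.1), and replicate 12 held 0.152 CPM of Slc17a9 (others 0 to 0.0523).

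In stimulated brain, replicate 19 held 3300 CPM of Ifng (others 75.1 to 492) and 608 CPM of Il21 (others 0 to 81.1), and replicate 20 held 2283 CPM of Ccl3 (others 663 to 694). In unstimulated spleen, replicate 33 had 14.7 M total counts (others 8.999 to 10.2 M) and 1.58 CPM of Il21 (others 0 to 0.370). In stimulated spleen, replicate 40 had 20.8% mitochondrial counts (others 14.8% to 15.6%), 6019 CPM of mt-Nd4 (others 2949 to 3742) and 86.6 CPM of Serpinb9, the lowest of its group (others 108 to 116).

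The test of the difference itself passed for 4577 genes. In 6 of them the 4-group fit called opposite directions in the tissues, with fitted differences of -6.85 for Dusp5, -6.73 for Tnfaip3, -6.06 for Btg2, -5.49 for Tob2, -4.32 for Klf6 and -15.97 for Ctla4. The last is no measured size, since Ctla4 had 0 counts in stimulated brain.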

How the results depend on the processing

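The number of genes that differed was 4577 and became 2375 with libraries thinned to equal counts, 1856 with the female brain libraries, 2770 with limma voom and 242 among genes with a count in every library. Of these 242, 57.0% were higher, against 5.55% in the main analysis; DESeq2 size factors moved the median difference from -4.04 to -3.33. The 66 spleen calls became 2080 with spleen alone, 134 with DESeq2 and 2115 with limma voom. The 6042 brain calls became 2875 with brain alone, 2950 with thinning, 3868 without stimulated brain replicates 20, 21 and 22, 313 among genes with a count in every library and 2718 with limma voom. The 384 female calls became 878 with DESeq2, 704 without a low-count filter and 135 with stimulated replicates 23 to 25 only. Leaving out 1 library at a time gave 4038 to 4877 genes for the difference, 47 to 91 for spleen, 5721 to 6031 for brain and 49 to 596 for female brain, where the count was 51, 53, 596, 49 and 68 without unstimulated replicates 13, 14, 15, 16 and 17, and 251 and 194 without stimulated replicates 24 and 27. Without 1 library the change in genes detected ran from -7211.5 to -6480.5 in brain and from -1076.5 to -836.5 in spleen, and that in the mitochondrial share from 42.7 to 52.3 and from 3.45 to 4.96 percentage points. Over the alternatives for 91 named genes, 2597 values kept direction and call, 129 lost the call, 21 gained it and 12 changed sign. These 12 were Ccl3 (0.55 with DESeq2 size factors and with the DESeq2 test, 1.15 with female brain, 0.97 thinned, 0.61 with a count in every library, 1.126 with voom, and -1.131 to 0.62 over left-out libraries, where the positive value came without unstimulated brain replicate 11), Il21 (-0.84 with female brain and -0.97 with voom), Ncl (0.061 without stimulated brain replicates 20, 21 and 22), Ccl5 (0.043 with female brain) and mt-Nd3 (-1.64 with voom). Where an alternative tests fewer genes or fits fewer samples, its construction changes the count; otherwise the cause was not tested. No paired analysis was possible because the 4 groups share no replicate numbers. The depth of stimulated brain limits every statement on genes at 0 there to the floor of 3 counts.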
